A study of Homo sapiens with 5 samples.

Results

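A set of 10 genes of the Wnt signalling pathway was described across RNA libraries of MDA-MB-231, a human triple-negative breast cancer cell line in long use. The genes were DKK1, DKK3, LRP5, LRP6, WNT5B, FZD2, FZD8, AXIN1, AXIN2 and TCF7L2. They were found by their symbol in the deposited table and make up 10 of its 10591 genes. Where a gene had several RefSeq transcripts, the one with the largest mean value across libraries stood for it. The study silenced SET or CIP2A, inhibitors of the phosphatase PP2A, or applied OP449, which the series describes as an antagonist of SET. MYC, a transcription factor that PP2A destabilizes, is the target named in the study's title.

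Each group had 1 library, for 5 in all, and every library was of this cell line grown in medium with serum. The siSET library came from cells given an siRNA against SET for 48 hours. The siCIP2A library came from cells given an siRNA against CIP2A, and the protocol in the labels gives 48 hours for it, although its own treatment label names no time. The siNT library came from cells given a control siRNA for 48 hours. The OP449 library came from cells given OP449 at 1 µM for 12 hours, and the PBS library from cells given PBS for 12 hours. The siRNA libraries differ from PBS in both time and the presence of an siRNA, and these cannot be told apart. PBS is therefore not a matched control for siSET, siCIP2A or siNT, including where it is used below as an alternative control. No group had a replicate, so no difference below has a replicate check and none was tested between conditions. Intervals are 95% exact counting intervals from whole reads recovered from the table. They cover counting error only, since reads carry no molecular identifiers, and they compare libraries, not conditions.

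Wnt proteins are secreted ligands that bind Frizzled receptors together with the co-receptor LRP5 or LRP6. Binding disables a cytoplasmic complex, built on the scaffold AXIN1 or AXIN2, that marks beta-catenin for destruction, and PP2A is known to act at several steps of this route. Stabilized beta-catenin joins TCF/LEF factors such as TCF7L2 at target genes, among them AXIN2 and DKK1, which feed back to restrain the signal. DKK1 is a secreted protein that occupies LRP5 and LRP6 and is made by a number of breast cancers that spread to bone.

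The libraries held 3640533 reads in siSET, 5601016 in siCIP2A, 5249138 in siNT, 4761627 in OP449 and 5512344 in PBS over the gene table. The values are scaled counts, a signal per transcript that the authors had put on a common scale, on which 1 read was worth 1.10 (siCIP2A) to 1.71 (siSET). The line's mesenchymal markers VIM, CD44 and AXL summed to between 48606 and 56819 scaled counts in each library. Luminal markers differed among themselves, with KRT19 at 4275 to 5998 scaled counts and the progesterone receptor gene PGR at 0 in all 5 libraries. Of 5 measured markers of leukocytes, endothelium and fibroblasts, DCN was at 0 throughout and the summed level was 3.31 to 11.6 scaled counts. SET, CIP2A, MYC and CTNNB1, the beta-catenin gene, were not analysed here, so the extent of silencing could not be checked.

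DKK1 and LRP5 carry most of what follows, so the 250 bases before the start of each are shown from RefSeq (GRCh38.p14, plus strand). The DKK1 stretch is chr10:52314031-52314280 and the LRP5 stretch is chr11:68312341-68312590. Capitals mark a TCF/LEF core, searched as CTTTGAT or CTTTGTT on both strands.
DKK1: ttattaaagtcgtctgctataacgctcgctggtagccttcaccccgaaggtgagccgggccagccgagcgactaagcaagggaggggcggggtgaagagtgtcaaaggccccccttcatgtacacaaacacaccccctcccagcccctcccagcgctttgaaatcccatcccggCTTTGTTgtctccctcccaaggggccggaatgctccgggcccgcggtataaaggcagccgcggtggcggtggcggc
LRP5: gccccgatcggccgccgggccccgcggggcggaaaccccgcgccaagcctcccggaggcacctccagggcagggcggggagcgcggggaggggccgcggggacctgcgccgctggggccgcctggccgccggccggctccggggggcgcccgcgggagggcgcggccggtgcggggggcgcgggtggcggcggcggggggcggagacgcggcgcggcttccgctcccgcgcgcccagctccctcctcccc

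The core in DKK1 begins at position -76 from the transcript start on the gene's own strand. The LRP5 stretch holds no match to these letters. Promoter windows of 300 bases, which run 250 before to 50 after the start, were matched for 6 of the 10 genes and came to 9 windows. The core was present in 2 of these 9, in DKK1 and in 1 of 3 windows of TCF7L2, and in 7.61% of all 35116 windows. The E-box CACGTG, a palindrome and the best known binding motif of MYC, was in 0 of the 9 windows and in 7.26% of all windows. The LRP5 window was 86.7% G and C, above 99.9% of all windows, and that of DKK1 was 63.7%. A match describes the letters only and does not show that a factor binds there.

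The 10 genes covered a wide span of expression. Corrected for transcript length, DKK1 was the most abundant, at 1056 to 2282 scaled counts per kb over the 5 libraries. LRP5 followed at 425 to 630 and the Frizzled receptor gene FZD2 at 258 to 324 scaled counts per kb. These ranges did not overlap each other. AXIN1 (141 to 165), WNT5B (117 to 152), TCF7L2 (87.4 to 122) and LRP6 (85.1 to 96.1) came next in scaled counts per kb, and each of these neighbours overlapped the next. AXIN2 lay lower at 10.3 to 19.4 scaled counts per kb. DKK3 (1.94 to 8.56) and FZD8 (3.40 to 6.30) were the lowest, and their ranges overlapped. The length used is that of the longest GENCODE transcript matched to the RefSeq transcript, so the order depends on which transcript the cells make. For FZD8 (4030 bases) and FZD2 (2112 bases) this length exceeds the span of the counted transcript on hg19. The order of the 2 lowest genes is therefore uncertain. It also depends on dividing by length. In plain scaled counts LRP6, at 10020 bases, had a mean of 909, above FZD2 at 597. Whether reads of this oligo-dT primed cDNA cover transcripts evenly was not tested.

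**Figure D1:**
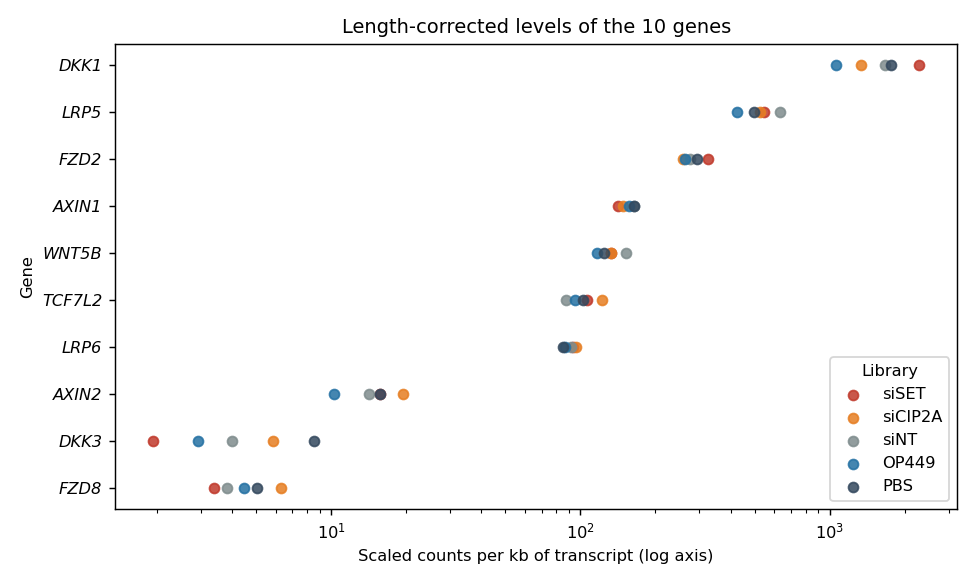
Length-corrected level of each gene (scaled counts per kb of transcript, log axis) in each of the 5 libraries, 1 point per library. DKK1 lies at 1056 to 2282 scaled counts per kb and FZD8 at 3.40 to 6.30.

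On hg19, the build of the table, the transcript of DKK1 spans chromosome 10 from 54074041 to 54077416 on the plus strand. LRP5 spans chromosome 11 from 68080108 to 68216739 (plus), LRP6 chromosome 12 from 12268963 to 12419811 (minus) and WNT5B chromosome 12 from 1738412 to 1756377 (plus). FZD2 lies on chromosome 17 from 42634925 to 42636907 (plus) and FZD8 on chromosome 10 from 35927177 to 35930362 (minus). AXIN1 spans chromosome 16 from 337440 to 402464 (minus), and AXIN2 chromosome 17 from 63524685 to 63557740 (minus). TCF7L2 spans chromosome 10 from 114710009 to 114927434 (plus), and DKK3 chromosome 11 from 11984545 to 12030629 (minus). DKK3 had 3 transcript rows, WNT5B 2, AXIN1 2 and TCF7L2 6. Within a library the rows of 1 gene differed by at most 7.14% for DKK3, 2.67% for AXIN1, 2.44% for TCF7L2 and 0.338% for WNT5B, so the table does not separate their isoforms.

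Of the 10 genes, 8 had a mean over each pair of libraries that reached 50 scaled counts. None of these 8 differed 2-fold or more in any of the 5 comparisons made. The background for that rule was 1.18% of 6083 genes in siSET against siNT, 1.11% of 6102 in siCIP2A against siNT and 0.591% of 6095 in OP449 against PBS. It was 0.395% of 6075 genes in siNT against PBS and 1.67% of 6097 in siSET against siCIP2A. The 8 genes were the same in every comparison, and DKK3 and FZD8 were below the floor in all of them. Without the floor, DKK3 was at least 2-fold lower in OP449 and in siNT against PBS, and in siSET against siCIP2A. A log2 fold is the difference of log2(value + 1) between 2 libraries, a scale on which folds of low genes come out too small. Bracketed intervals belong to the log2 ratio without the pseudocount.

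**Figure D2:**
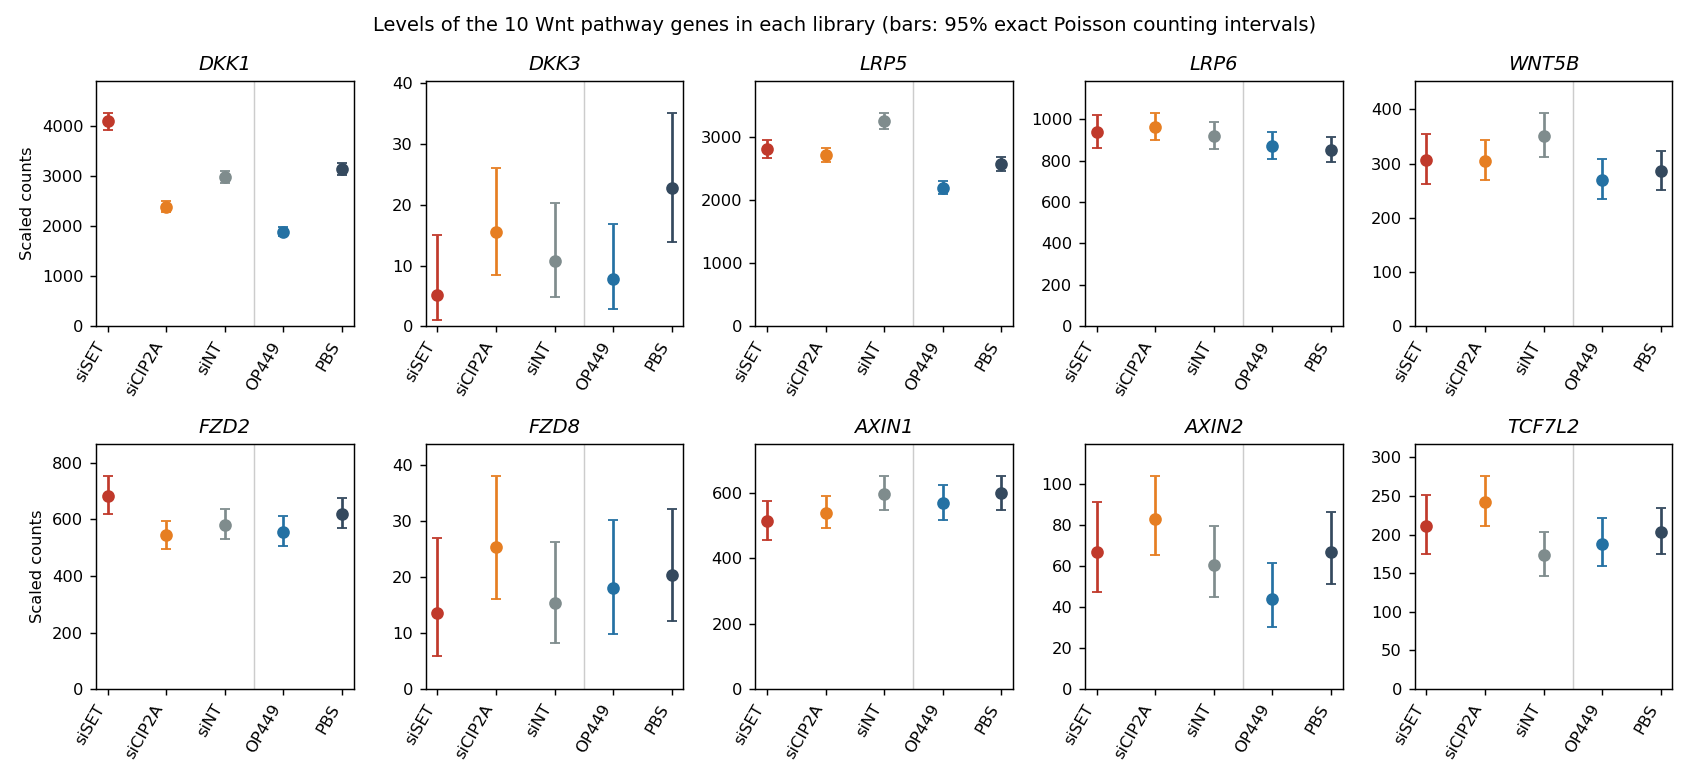
Scaled counts of each gene in the siSET, siCIP2A and siNT libraries (left of the grey line) and the OP449 and PBS libraries (right), with 95% exact Poisson counting intervals and each axis starting at 0. DKK1 is highest in siSET at 4085 and lowest in OP449 at 1890, whereas LRP6 stays between 852 and 963.

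Of the secreted antagonists, DKK1 stood at 4085 scaled counts in siSET, 2390 in siCIP2A, 2970 in siNT, 1890 in OP449 and 3138 in PBS, from 2388, 2164, 2506, 1467 and 2768 reads. The siSET library was the highest and OP449 the lowest, and both controls lay between the treated libraries. In siSET DKK1 was 1.38-fold higher than in siNT, a log2 fold of 0.46 [0.38 to 0.54]. In siCIP2A it was lower than in siNT, at -0.31 [-0.40 to -0.23]. In OP449 it was 1.66-fold lower than in PBS, at -0.73 [-0.82 to -0.64].

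The siRNA libraries lay on opposite sides of their shared control for DKK1, and set directly against each other, siSET was 1.71-fold above siCIP2A, at 0.77 [0.69 to 0.86]. The 2 controls differed little, with siNT at -0.08 [-0.16 to -0.00080] against PBS. With PBS as the control, siSET stood at 0.38 [0.30 to 0.46] and siCIP2A at -0.39 [-0.47 to -0.31], so both kept their direction. The OP449 difference was under the 2-fold rule, yet 1.80% of the 6095 genes tested differed at least as much. For siSET against siNT that share was 12.4%, and for siCIP2A against siNT it was 23.2%. In these bulk libraries a lower share of cells making DKK1 and less of its RNA per cell cannot be told apart.

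DKK3, a divergent relative of DKK1, was near the detection limit. It had 3 reads in siSET, 14 in siCIP2A, 9 in siNT, 6 in OP449 and 20 in PBS, which is 5.13, 15.5, 10.7, 7.73 and 22.7 scaled counts. PBS was the highest library and siSET the lowest. Its log2 ratio was -1.55 [-3.16 to -0.18] in OP449 against PBS, -1.06 [-3.58 to 0.95] in siSET against siNT and 0.54 [-0.78 to 1.92] in siCIP2A against siNT. At this depth only the first of these intervals leaves out equality, and DKK3 failed the floor on the mean in every comparison.

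The co-receptor gene LRP5 stood at 2802 scaled counts in siSET, 2708 in siCIP2A, 3251 in siNT, 2190 in OP449 and 2568 in PBS. The siNT library was the highest and OP449 the lowest. LRP5 was lower in siSET than in siNT, with a log2 fold of -0.21 [-0.30 to -0.13], and lower in siCIP2A than in siNT, at -0.26 [-0.34 to -0.18]. These 2 values share the siNT library, which was itself 1.27-fold above PBS, at 0.34 [0.26 to 0.42]. With PBS as the control both directions turned, to 0.13 [0.03 to 0.22] in siSET and 0.08 [-0.01 to 0.16] in siCIP2A. In OP449 LRP5 was lower than in PBS, at -0.23 [-0.32 to -0.14]. Differences of at least this size were common, at 31.4% of all genes tested in OP449 against PBS. For the LRP5 folds against siNT the shares were 40.8% in siSET and 29.6% in siCIP2A.

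LRP6, the close relative of LRP5, had 939 scaled counts in siSET, 963 in siCIP2A, 917 in siNT, 871 in OP449 and 852 in PBS. Its highest library was only 1.13-fold above its lowest, the narrowest range of the 10 genes. In siSET and siCIP2A against siNT, and in OP449 against PBS, its log2 folds were 0.03 [-0.13 to 0.19], 0.07 [-0.07 to 0.21] and 0.03 [-0.12 to 0.18]. All 3 intervals included equality, with upper bounds of at most 0.21. With PBS as control they were 0.14 [-0.02 to 0.30] in siSET and 0.18 [0.03 to 0.32] in siCIP2A, and the second leaves out equality. The ranges of LRP5 and LRP6 over the libraries were unequal, with spans of 0.57 and 0.18 on the log2 scale.

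Among ligands and Frizzled receptors, WNT5B, a ligand known mainly for signalling that does not pass through beta-catenin, stood at 306 scaled counts in siSET, 305 in siCIP2A, 351 in siNT, 269 in OP449 and 286 in PBS. As with LRP5, siNT was the highest library and OP449 the lowest. The log2 folds of WNT5B were -0.20 [-0.47 to 0.08] in siSET against siNT, -0.20 [-0.44 to 0.04] in siCIP2A against siNT and -0.09 [-0.36 to 0.18] in OP449 against PBS. The siNT library was above PBS, at 0.30 [0.05 to 0.54].

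FZD2 stood at 684 scaled counts in siSET, 544 in siCIP2A, 582 in siNT, 557 in OP449 and 620 in PBS. The siSET library was the highest, as for DKK1. FZD2 was higher in siSET than in siNT, at 0.23 [0.04 to 0.43], and higher in siSET than in siCIP2A, at 0.33 [0.14 to 0.52]. Against PBS the siSET value was 0.14 [-0.05 to 0.33], which includes equality. It was -0.10 [-0.28 to 0.09] in siCIP2A against siNT and -0.16 [-0.34 to 0.03] in OP449 against PBS. With PBS as control the siCIP2A value was -0.19 [-0.37 to -0.01]. FZD8, another Frizzled receptor, had 8 reads in siSET, 23 in siCIP2A, 13 in siNT, 14 in OP449 and 18 in PBS, which is 13.7, 25.4, 15.4, 18.0 and 20.4 scaled counts. The interval of FZD8 included equality in all 5 comparisons.

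The scaffold gene AXIN1 stood at 513 scaled counts in siSET, 540 in siCIP2A, 598 in siNT, 569 in OP449 and 600 in PBS. It was lower in siSET than in siNT, at -0.22 [-0.43 to -0.01], and its value against PBS was also -0.22 [-0.43 to -0.02]. In siCIP2A it was at -0.15 [-0.33 to 0.03] against siNT, and in OP449 at -0.07 [-0.26 to 0.11] against PBS.

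AXIN2, the inducible scaffold often read as a reporter of beta-catenin activity, was scarce. It stood at 66.7 scaled counts in siSET, 82.8 in siCIP2A, 60.4 in siNT, 43.8 in OP449 and 66.9 in PBS, from 39, 75, 51, 34 and 59 reads. OP449 was the lowest library, as for DKK1, but siCIP2A was the highest, where DKK1 was low. The log2 fold was -0.60 [-1.26 to 0.02] in OP449 against PBS, 0.45 [-0.08 to 1.00] in siCIP2A against siNT and 0.14 [-0.50 to 0.77] in siSET against siNT. A difference in AXIN2 was therefore not detectable at this depth in any of the 3.

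The transcription factor gene TCF7L2 stood at 210 scaled counts in siSET, 242 in siCIP2A, 173 in siNT, 188 in OP449 and 203 in PBS. The siCIP2A library was the highest and siNT the lowest. TCF7L2 was 1.40-fold higher in siCIP2A than in siNT, at 0.48 [0.17 to 0.80], and at 0.25 [-0.04 to 0.55] against PBS. Its log2 fold was 0.28 [-0.08 to 0.64] in siSET against siNT and -0.11 [-0.43 to 0.21] in OP449 against PBS.

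**Figure D3:**
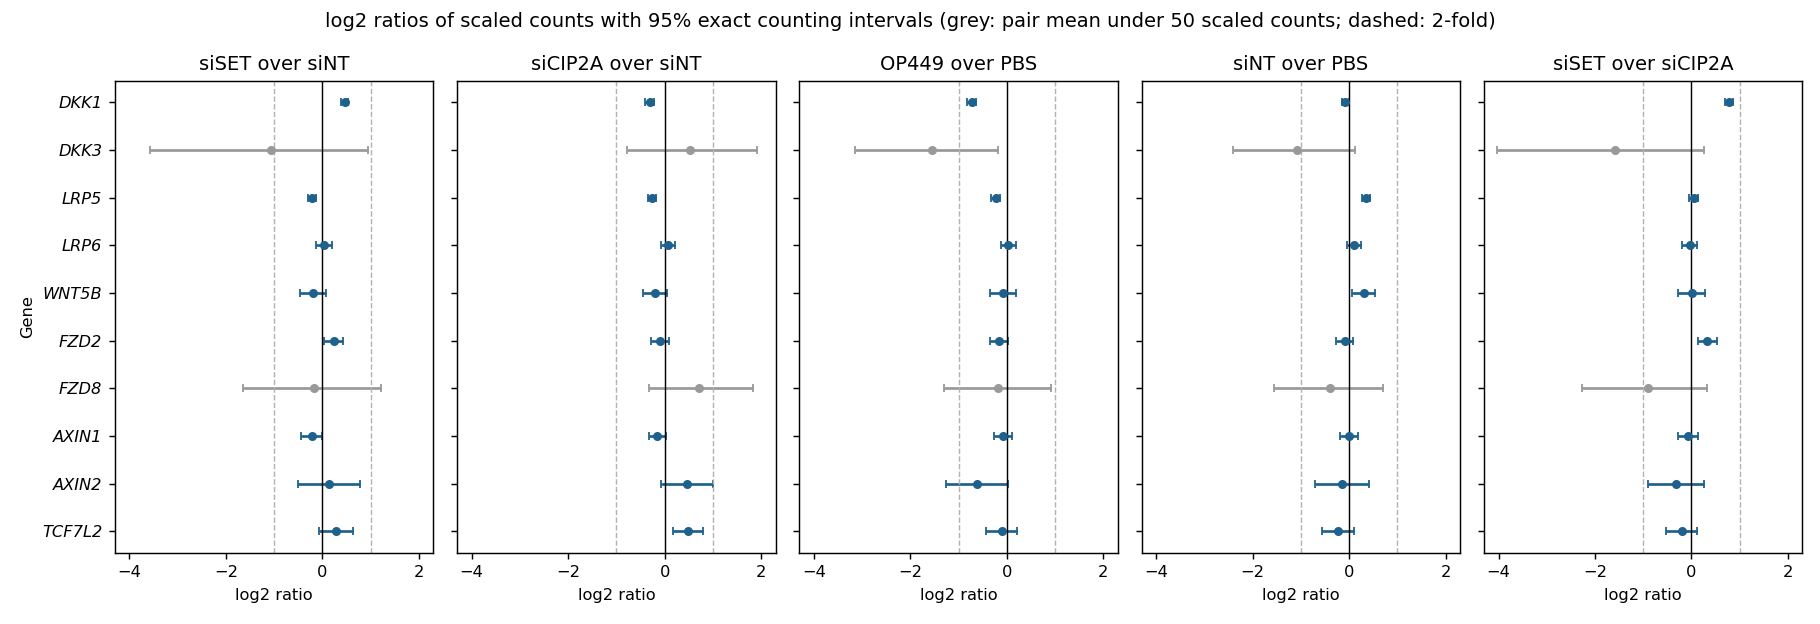
log2 ratio of scaled counts, first-named over second-named library, with 95% exact counting intervals for the 10 genes in 5 comparisons. Grey points have a pair mean under 50 scaled counts, and dashed lines mark 2-fold. DKK1 lies above 0 in siSET over siNT (0.46) and below 0 in siCIP2A over siNT (-0.31) and OP449 over PBS (-0.73).

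Counting intervals were narrow enough to leave out equality for many genes in every pair of libraries, so the counts were read against that background. In siSET against siNT, 4 of the 8 genes past the floor had such an interval (DKK1, LRP5, FZD2 and AXIN1), where the background was 39.6% of all genes tested. In siCIP2A against siNT there were 3 (DKK1, LRP5 and TCF7L2), against 41.5%. OP449 against PBS gave 2 (DKK1 and LRP5), against 36.3%. The 2 controls, siNT against PBS, gave 3 (DKK1, LRP5 and WNT5B), against 35.4%, and siSET against siCIP2A gave 2 (DKK1 and FZD2), against 41.4%. These shares were near the background, so the number of such genes is not a result about the 10. An exact binomial test on the reads of each pair, with Benjamini-Hochberg adjusted p at most 0.05, was added after seeing the data. It called 2 of the 8 in siSET against siNT (DKK1 and LRP5), where 30% of all genes tested were called. It called 3 in siCIP2A against siNT (DKK1, LRP5 and TCF7L2), against 33.7%, and 2 in OP449 against PBS (DKK1 and LRP5), against 27.2%. For siNT against PBS it called 1 (LRP5), against 26.4%, and for siSET against siCIP2A 2 (DKK1 and FZD2), against 34%. That test compares libraries, not conditions.

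The medians of the 8 genes were small too. The median log2 fold was 0.09 in siSET against siNT, with 5 higher and 3 lower, beside 0.01 over all genes tested. It was -0.12 in siCIP2A against siNT, with 3 higher and 5 lower, beside 0.02 over all genes. In OP449 against PBS it was -0.13, with 1 higher (LRP6) and 7 lower, beside 0.02 over all genes. It was -0.04 in siNT against PBS, beside -0.0042 over all genes.

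The rest of the pathway was read from 7 lists by role, which named 141 genes, of which 79 were in the table and 48 had a mean of at least 50 scaled counts. Apart from the 10 genes, 41 were past the floor in siSET against siNT, where 0 were 2-fold higher and 1 was 2-fold lower. That is 2.44% of them, beside 1.18% of all genes tested. In siCIP2A against siNT, 0 of 41 were 2-fold higher and 2 lower, which is 4.88% beside 1.11%. In OP449 against PBS, 0 of 41 were higher and 2 lower, which is 4.88% beside 0.591%. Between the controls, siNT against PBS, 1 of 41 was higher and 0 were lower, which is 2.44% beside 0.395%. In siSET against siCIP2A, 0 of 40 passed in either direction, beside 1.67%. With 0 to 2 genes a comparison, nothing is read from these shares.

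The genes past 2-fold were few. RNF43, a membrane ubiquitin ligase that removes Frizzled receptors and is itself a Wnt target, stood at 117 scaled counts in OP449 against 239 in PBS, at -1.02 [-1.40 to -0.67]. In siCIP2A it stood at 166 and in siSET at 287, against 300 in siNT. PRICKLE1, a component of the planar polarity branch, stood at 121 in OP449 against 314 in PBS, at -1.37 [-1.73 to -1.03]. Its level was 303 in siSET and 202 in siCIP2A, against 322 in siNT. TNFRSF19, a receptor known as a beta-catenin target, stood at 29.1 in siSET and 27.6 in siCIP2A against 73.5 in siNT, with log2 folds of -1.31 [-2.20 to -0.54] and -1.38 [-2.14 to -0.72], and at 45.1 in OP449 against 53.3 in PBS. Both calls of TNFRSF19 share the siNT library, which lifted the pair means to 51.3 and 50.5, just past the floor. With PBS as control the log2 folds were -0.85 [-1.77 to -0.05] in siSET and -0.92 [-1.71 to -0.22] in siCIP2A, under 2-fold and under the floor, so both calls were lost. The ligand gene WNT9A stood at 47.5 in siCIP2A against 103 in siNT, at -1.10 [-1.68 to -0.58]. The control siNT was itself at 1.03 [0.51 to 1.61] against PBS for WNT9A, where the level was 49.9. With PBS as control, WNT9A in siCIP2A was at -0.07 [-0.71 to 0.57] and under the floor, so that call was lost too.

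**Figure D4:**
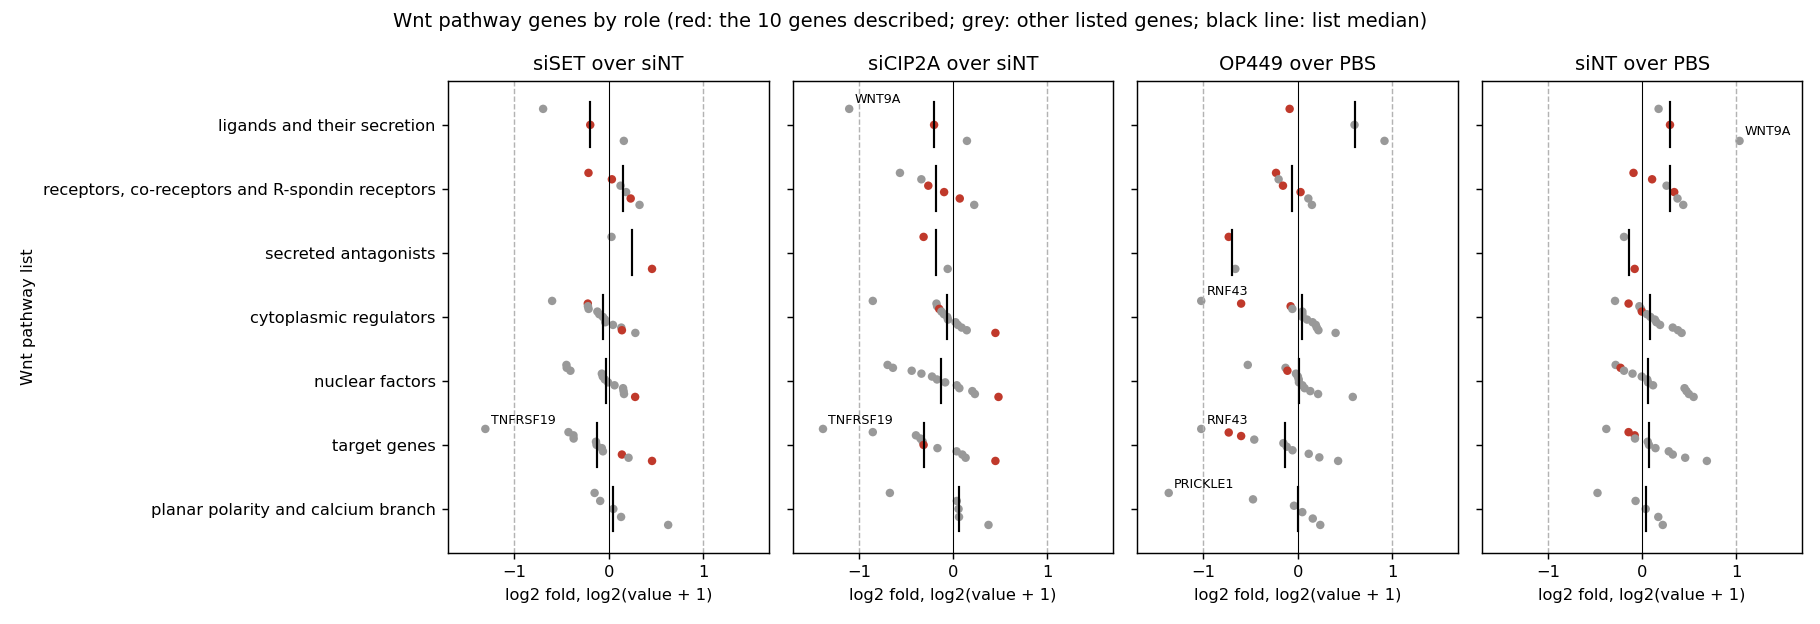
log2 fold on log2(value + 1) of every listed Wnt pathway gene with a pair mean of at least 50 scaled counts, by role and comparison, with the 10 genes in red and list medians as black lines. RNF43 and PRICKLE1 lie left of the 2-fold line in OP449 over PBS. TNFRSF19 lies left of it in both siRNA panels and WNT9A in that of siCIP2A, calls that were lost with PBS as control.

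By role, the 11 target genes past the floor had a median log2 fold of -0.13 in siSET against siNT and -0.31 in siCIP2A against siNT. In OP449 against PBS, 10 were past it, with a median of -0.13. The 13 cytoplasmic regulators had medians of -0.06, -0.06 and 0.05 in these comparisons, and the 12 nuclear factors -0.02, -0.13 and 0.01. The 6 receptors and co-receptors stood at 0.16, -0.18 and -0.06. The planar polarity list, with 5, 5 and 6 genes past the floor, had medians of 0.05, 0.06 and 0.01. The 3 ligand and secretion genes stood at -0.20, -0.20 and 0.60, and the 2 secreted antagonists at 0.25, -0.19 and -0.70. Between the controls, siNT against PBS, the medians were 0.07 for target genes, 0.09 for cytoplasmic regulators, 0.06 for nuclear factors, 0.30 for receptors, 0.04 for planar polarity genes, 0.30 for ligands and -0.14 for antagonists. The difference between the controls was thus larger in size than either siRNA median for the receptors, the ligands and the cytoplasmic regulators. Apart from the planar polarity list, each list includes at least 1 of the 10 genes, so these medians overlap the values above. The target list holds DKK1 and AXIN2, and its median in siCIP2A against siNT is DKK1's own value. Ligand medians in both siRNA libraries against siNT, and between the controls, are those of WNT5B. Several target genes are controlled by other pathways as well.

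Some genes were named after their values were seen. The Wnt target genes LGR5, NKD1, NOTUM and APCDD1 had at most 2.37 scaled counts in any library, below what 3 reads are worth there. Several other listed target genes were abundant, such as CCND1 at 9068 to 10649 and CD44 at 13820 to 20560 scaled counts. The antagonist genes WIF1 and SFRP5 had at most 2.27, whereas IGFBP4, on the same list, stood at 11449 to 18103.

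The pattern of DKK1 over the 5 libraries was compared with that of 6091 genes by the root mean square difference of centred log2 values. PLAAT4 was nearest, at 0.08, with 464 scaled counts in siSET, 239 in siCIP2A, 339 in siNT, 201 in OP449 and 320 in PBS. FLT3LG followed at 0.10, with 75.3, 43.1, 52.1, 32.2 and 47.6 scaled counts in the same libraries, from 25 to 44 reads each. LDLRAD2 was at 0.11, with 854, 596, 598, 405 and 684. DKK3 had the widest range of the 10 genes, but that range rests on 3 reads in siSET and 20 in PBS. Among the 8 genes past the floor, DKK1 had the widest, at 1.11 on the log2 scale. The genes nearest to DKK3 were HOXB9 at 0.37, SELPLG at 0.38 and ZNF461 at 0.39. With 5 libraries, this measure describes likeness over 5 points only.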

How the data were processed

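Per the labels' protocols, RNA of MDA-MB-231 cells was primed with oligo-dT, made into cDNA and read on an Illumina GAII. The submitters' processing notes name hg19, CASAVA and Bowtie 1.0.0. The sources used here do not name the counting program, its strand setting or the scaling method. Each deposited value is a scaled signal for 1 RefSeq transcript, as the authors made it. Dividing by a library's smallest positive value gave whole reads, within 0.001 reads, for 100% of values in each library. The table had 16383 transcript rows from part of the genome. Of these, 15739 matched a current symbol by accession.

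Genes were called at a fold of 2 on log2(value + 1) where the pair mean was at least 50. Ratios had 95% exact Clopper-Pearson counting intervals. These were tried on simulated reads that held counting error only, so the trial says nothing of variation between libraries. No test between conditions was possible with 1 library per group. The 10 genes and the lists were chosen with earlier results of these data known. All 10 genes were named, and up to 4 per list and comparison past the fold. The 3 genes nearest in pattern were named for DKK1 and for the gene of widest range. Lengths came from GENCODE release 29 and promoters from RefSeq. Alternatives were floors, a pseudocount, a fold threshold, scalings, PBS as control, interval demands and summed transcripts. Python 3.11.15, numpy 2.4.6, pandas 2.3.3, scipy 1.17.1 and matplotlib 3.10.9 were used.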

Additional observations from a re-analysis of the deposited data

How the results depend on the processing

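Scaling to the median of ratios, upper quartiles or totals kept all 5 counts of genes past 2-fold within 1.5 times. With a floor of 20, the counts for siSET and then siCIP2A against siNT, OP449 and then siNT against PBS, and siSET against siCIP2A were 115, 111, 71, 51 and 158, beside 72, 68, 36, 24 and 102 with a floor of 50. With no floor they were 953, 880, 780, 812 and 972, and with a fold threshold of 1.5 they were 435, 373, 230, 185 and 508. A pseudocount of 10 left 15 in siNT against PBS, and PBS as control left 40 for siSET. The binomial test on reads, an alternative chosen after seeing the data, called 1826, 2056, 1655, 1604 and 2074 genes at a Benjamini-Hochberg adjusted p of 0.05.

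Of the 10 genes, 0 passed 2-fold in any comparison. With no floor, 1 (DKK3) did in each of OP449 against PBS, siNT against PBS and siSET against siCIP2A. At a fold of 1.5, 2 (DKK1 and AXIN2) did in OP449 against PBS and 1 (DKK1) in siSET against siCIP2A. The binomial test called 2, 3, 2, 1 and 2 of them in the 5 comparisons, in the order above. DKK1 ranged over the alternatives from 0.38 to 0.47 in siSET against siNT, from -0.39 to -0.31 in siCIP2A against siNT and from -0.75 to -0.70 in OP449 against PBS. With PBS as control, 6 of 20 log2 folds took the other sign, those of LRP5 and WNT5B in both siRNA libraries, AXIN2 in siSET and DKK3 in siCIP2A. Depth limits DKK3, FZD8 and AXIN2 most. No paired analysis was possible because each group had 1 library.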
